A study of Mus musculus with 16 samples.

Results

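Cholesterol synthesis was followed here through 9 genes of the Neuro 2a transcriptome: the enzyme genes Hmgcs1, Idi1, Fdps, Lss, Cyp51, Hsd17b7, Ebp and Dhcr7, and Insig1, which encodes a regulator of the pathway and not an enzyme. They are 9 of 16593 genes named on the array. Members were all probes whose platform gene symbol was one of these 9. Probes were taken by symbol alone, but the 9 genes were chosen with earlier results of these data known. There were 12 such probes of 25697 on the array, 4 for Insig1 and 1 for each other gene, and 11 of them were detected well enough to be tested, among 10794 passing probes in all. To pass, a probe had to be detected (p under 0.01 against background) on each of the 4 arrays of some group, and the 11 probes were detected on all 16 arrays. The remaining Insig1 probe was detected on no array, with scanner intensities close to background on every array.

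Neuro 2a is a mouse neuroblastoma line, for which the labels give the strain C57BL/6J. The study crossed 2 factors in 4 groups of 4 arrays. Basal-total was RNA of untreated cells, and Ox-total was RNA of cells exposed to hydrogen peroxide, with no dose or time stated in the labels. Basal-ARP and Ox-ARP were the fractions of such RNA held by streptavidin beads. All 4 groups, the uncaptured ones included, carried the aldehyde reactive probe (ARP), a biotin reagent that couples to RNA sugars that have lost their base. No group was captured without ARP, so retention on the beads without label and abasic sites cannot be told apart. The labels do not say whether replicates were separate cultures, so p-values measure the spread between arrays, which may be technical.

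Cells build cholesterol from acetyl units through the mevalonate pathway, an isoprenoid stage and a long series of changes to the sterol ring and side chain. Hmgcs1 condenses acetyl units into HMG-CoA, an early intermediate of the mevalonate stage. Idi1 isomerises the isoprenoid building block, Fdps joins such blocks into farnesyl diphosphate, and Lss closes the squalene chain into lanosterol. Cyp51, Hsd17b7, Ebp and Dhcr7 then act in turn on lanosterol and its products, Cyp51 removing a methyl group, Hsd17b7 reducing a ketone, Ebp moving a double bond and Dhcr7 making the last reduction to cholesterol. These genes are known targets of the sterol-sensing SREBP transcription factors. Insig1 holds the SREBP escort protein in the endoplasmic reticulum when sterols are plentiful, and is itself an SREBP target.

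The promoters of these genes are known for pairing a sterol regulatory element with CCAAT and Sp1 boxes, and those letters were looked up in the RefSeq promoter windows of build GRCm38.p6 (250 bases before to 50 after a gene start), which held 10 windows for 8 of the 9 genes. Fdps was not analysed here in this respect. The CCAAT letters, on either strand, stood in at least 1 window of 8 of 8 genes, against 41.1% of all 27025 genes in the table. The Sp1 box GGGCGG was likewise found for 8 of 8, against 38.2%, and the E-box CACGTG for 3 of 8 (Dhcr7, Hsd17b7 and Insig1), against 8.09%. The strict sterol element TCACNCCAC was found for Hmgcs1 alone, against 1.44% of all genes. A missing match says only that these letters are not in the window. The windows of 4 genes are shown because these genes passed the test between the captured fractions, in both directions, while sharing the CCAAT letters. Capitals mark CCAAT or its reverse complement and, in Hmgcs1, also the sterol element.
Hmgcs1 (chr13:119690101-119690400, plus strand): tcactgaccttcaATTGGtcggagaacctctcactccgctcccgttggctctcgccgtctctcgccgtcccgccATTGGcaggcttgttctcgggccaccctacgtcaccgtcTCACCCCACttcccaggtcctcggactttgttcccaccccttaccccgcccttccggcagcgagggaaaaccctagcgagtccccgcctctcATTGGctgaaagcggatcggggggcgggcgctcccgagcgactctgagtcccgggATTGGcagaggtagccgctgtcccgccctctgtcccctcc
Hsd17b7 (chr1:169969156-169969455, minus strand): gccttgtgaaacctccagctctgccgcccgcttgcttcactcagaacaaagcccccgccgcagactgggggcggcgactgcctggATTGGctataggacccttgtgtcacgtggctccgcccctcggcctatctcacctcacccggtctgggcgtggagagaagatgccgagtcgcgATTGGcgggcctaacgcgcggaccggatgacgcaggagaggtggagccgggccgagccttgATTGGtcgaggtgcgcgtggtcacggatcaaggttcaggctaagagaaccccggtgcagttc
Lss (chr10:76531355-76531654, plus strand): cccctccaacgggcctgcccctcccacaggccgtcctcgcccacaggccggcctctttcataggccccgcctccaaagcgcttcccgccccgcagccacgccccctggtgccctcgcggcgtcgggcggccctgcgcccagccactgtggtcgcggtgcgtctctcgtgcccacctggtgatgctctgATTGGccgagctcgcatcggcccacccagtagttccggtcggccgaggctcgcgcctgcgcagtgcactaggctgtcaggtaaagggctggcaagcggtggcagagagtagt
Insig1 (chr5:28071162-28071461, plus strand): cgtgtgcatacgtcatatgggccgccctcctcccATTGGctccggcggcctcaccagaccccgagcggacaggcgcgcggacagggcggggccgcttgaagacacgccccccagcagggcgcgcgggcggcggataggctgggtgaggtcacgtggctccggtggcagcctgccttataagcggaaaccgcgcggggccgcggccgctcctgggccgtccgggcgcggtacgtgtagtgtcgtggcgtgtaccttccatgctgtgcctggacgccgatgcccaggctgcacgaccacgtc
The printed windows hold 4 CCAAT matches in Hmgcs1, 3 in Hsd17b7 and 1 each in Lss and Insig1.

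Array mean signals ran from 328 to 533, and 10351 to 11068 probes were detected per array. The arrays lay on 2 chips, each with 2 arrays of every group (replicates 1 and 2 on the first, 3 and 4 on the second). Same-numbered arrays therefore shared a chip, but each chip position was used by a single group and the effects of position and group cannot be told apart. Of 11 Neuro 2a markers 9 passed, among them Phox2a, Hand2, Gata3, Th and Dbh, while Tubb3 was detected on 1 array. No astrocyte, macrophage or hepatocyte marker passed, and of 5 fibroblast markers Dcn alone did, on 12 arrays, while Pdgfra was detected on 8 arrays and Col1a1, Col1a2 and Lum on none. Expression values below are normalized log2 intensities, and changes are differences of group means ± standard error (SE) of the fit in limma over all 16 arrays. A probe was called, or said to rise or fall, when its p, adjusted by Benjamini-Hochberg across the 10794 passing probes, was under 0.05. Between a captured and a total fraction, such a change is a shift in relative representation, since the amount of RNA recovered was not measured.

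**Figure D1:**
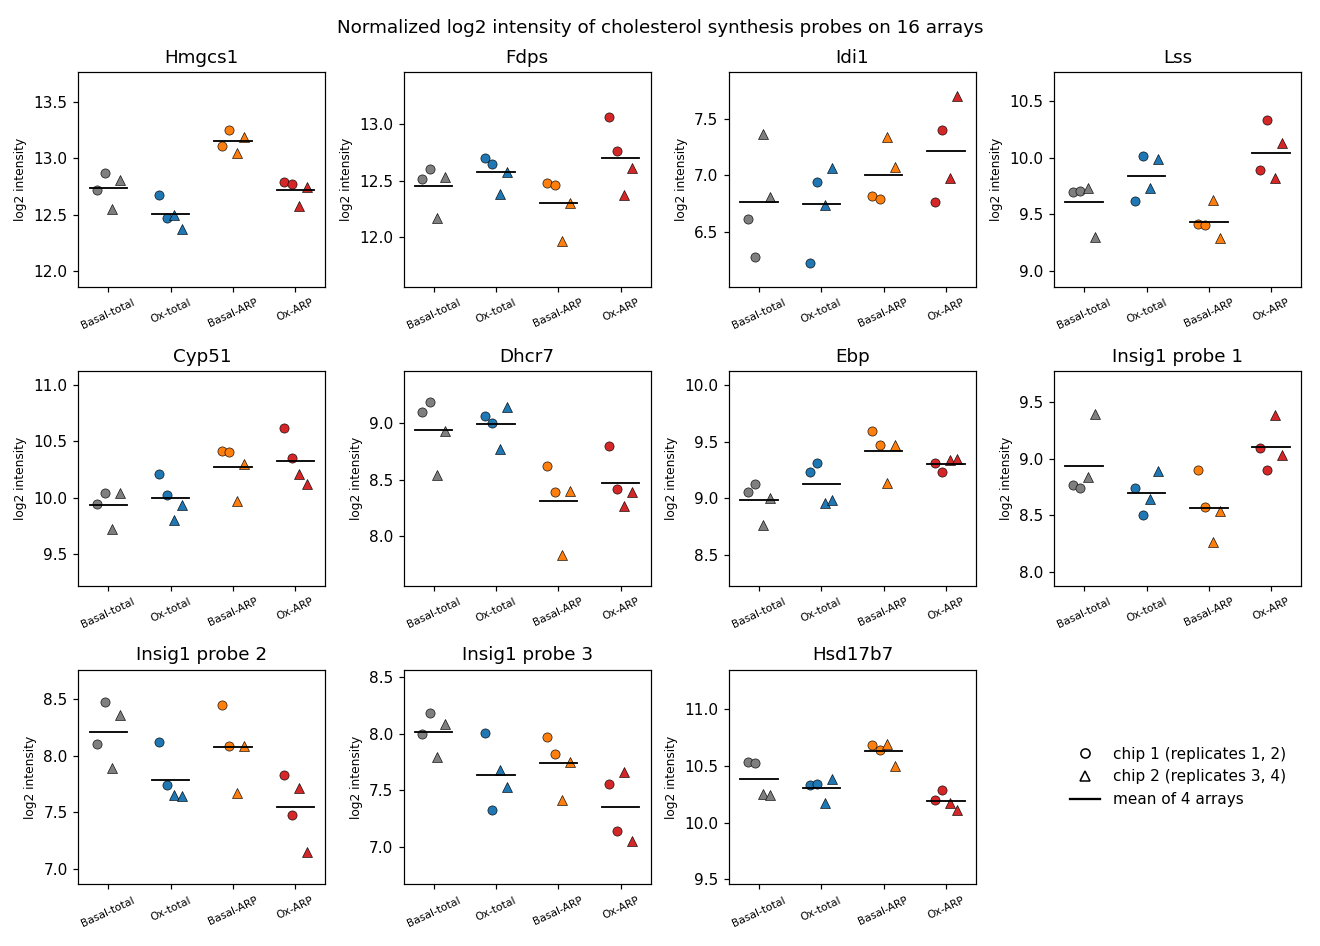
Each panel plots 1 probe's normalized log2 intensity on the 16 arrays by group, with circles for chip 1, triangles for chip 2 and a line at the mean of 4 arrays. Every panel spans the same range of log2 units. Hmgcs1 is highest in Basal-ARP, Dhcr7 is lower in both captured groups, and Insig1 probe 1 is higher in Ox-ARP than in Basal-ARP whereas Insig1 probes 2 and 3 are lower.

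Comparing Ox-total with Basal-total asks whether peroxide altered the level of these transcripts before capture. None of the 11 probes passed the test. The fit in limma called 0.25% of all passing probes in this comparison (27 of 10794, with 0.0556% up and 0.195% down), and 3 of the 11 had an unadjusted p under 0.05, against 1089 of all. The probes' changes ran from -0.42 to 0.23 with a median of -0.02, against a median of 0.01 over all passing probes. By the brightest passing probe of each of the 9 genes the median was 0.05, against 0.02 over the brightest probes of all genes.

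The 3 lowest unadjusted p-values belonged to Hmgcs1 and Insig1. Hmgcs1 read 12.72, 12.87, 12.55 and 12.80 on the Basal-total arrays of replicates 1 to 4, and 12.68, 12.47, 12.50 and 12.38 on the Ox-total arrays. The Ox-total array was the lower in 4 of 4 same-numbered comparisons although the groups overlapped, and the change was -0.23 ± 0.09 (adjusted p = 0.42). Insig1 probes 2 and 3 had -0.42 ± 0.18 and -0.38 ± 0.16 (adjusted p = 0.43 for both), and Insig1 probe 1 had -0.24 ± 0.15 (adjusted p = 0.65). Lss had 0.23 ± 0.13, and the other 6 probes lay between -0.08 and 0.14. All 11 probes had overlapping groups, while 6.24% of all passing probes did not overlap.

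The contrast of Basal-ARP with Basal-total shows which of these transcripts were over- or under-represented among RNA captured from unstressed cells. Hmgcs1 and Ebp rose on capture and Dhcr7 fell, and 8 of the 11 probes did not pass. The 3 calls stand against 31.8% called among all passing probes (16.7% up and 15.2% down), so the number of calls does not set these probes apart. Their median change was -0.13, against 0.02 over all passing probes, with Insig1 counted by 3 probes. Over the brightest passing probe of each of the 9 genes the median was 0.24, against 0.01 over the brightest probes of all genes.

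Hmgcs1, the first enzyme of the group, read 13.11, 13.25, 13.05 and 13.19 on the 4 Basal-ARP arrays. Each of these lay above every Basal-total array, and the change was 0.41 ± 0.09 (adjusted p = 0.0031), 1.33-fold. It was 0.38 on chip 1 and 0.44 on chip 2. Ebp, the sterol isomerase gene, read 9.06, 9.12, 8.76 and 9.001 in Basal-total and 9.59, 9.47, 9.13 and 9.47 in Basal-ARP. The groups did not overlap, as in 27.7% of all passing probes, although replicate 3 of Basal-ARP lay only just above replicate 2 of Basal-total, and the change was 0.43 ± 0.11 (adjusted p = 0.0081), with 0.44 on chip 1 and 0.42 on chip 2. The call of Hmgcs1 depended on scaling more than that of Ebp. With median scaling in place of quantile normalization the change of Hmgcs1 was 0.21 (adjusted p = 0.095) and with cyclic loess 0.26 (adjusted p = 0.052). With no normalization Hmgcs1 had 0.11 (adjusted p = 0.70) and Ebp 0.31 (adjusted p = 0.24). Ebp kept its call with median scaling (0.41, adjusted p = 0.0073) and with cyclic loess. In the authors' processed values both passed, Hmgcs1 at 0.29 (adjusted p = 0.039) and Ebp at 0.50 (adjusted p = 0.0011).

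Dhcr7, the gene of the final reductase, went the other way. It read 9.10, 9.19, 8.54 and 8.93 in Basal-total and 8.62, 8.39, 7.84 and 8.40 in Basal-ARP. The groups overlapped, since replicate 3 of Basal-total lay below replicate 1 of Basal-ARP. Replicate 3 was the lowest array of both groups, and the captured array was the lower in 4 of 4 same-numbered comparisons. The change was -0.63 ± 0.17 (adjusted p = 0.0084), 1.55-fold lower, with -0.64 on chip 1 and -0.62 on chip 2.

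Cyp51 and Hsd17b7 lay just outside the threshold. Cyp51, the lanosterol demethylase gene, had 0.33 ± 0.13 (adjusted p = 0.055) and Hsd17b7 0.24 ± 0.09 (adjusted p = 0.051), each higher in 4 of 4 same-numbered comparisons. With chip as a block both passed (adjusted p = 0.012 and 0.020), which gave 5 calls of 11 in place of 3. That block also raised the calls among all 10794 passing probes, from 3437 to 4354. Within chips 1 and 2 the changes were 0.42 and 0.25 for Cyp51 and 0.13 and 0.35 for Hsd17b7. Fdps (-0.15 ± 0.15), Lss (-0.17 ± 0.13) and Idi1 (0.24 ± 0.23) did not pass. The 3 Insig1 probes had -0.37 ± 0.15 (adjusted p = 0.080), -0.13 ± 0.18 and -0.27 ± 0.16, and did not pass either. All 11 probes kept one sign on both chips.

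**Figure D2:**
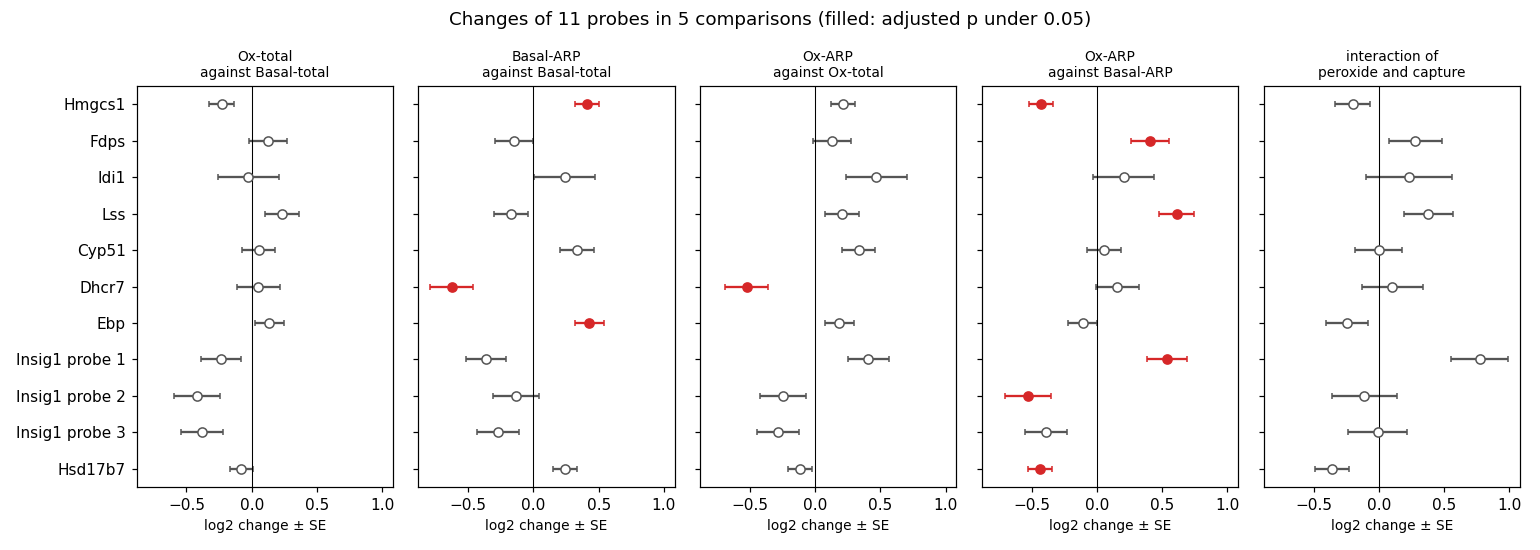
Points are log2 changes of the 11 probes in 5 comparisons, with bars of 1 SE (16 arrays, 4 per group) and filled red where the adjusted p was under 0.05. No probe is filled for peroxide in total RNA or for the interaction, 3 are filled for capture without peroxide, 1 for capture with it, and 6 between the captured fractions, 3 on each side of 0.

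The capture comparison was repeated in cells exposed to peroxide, as Ox-ARP against Ox-total. Dhcr7 was the single member to pass, again lower among captured RNA. The fit called 27% of all passing probes here (13.6% up and 13.4% down). The median over the 11 probes was 0.18, against 0.03 over all passing probes.

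Dhcr7 read 9.06, 8.77 and 9.14 in Ox-total replicates 1, 3 and 4, with replicate 2 between the first 2 of these, and 8.79, 8.42, 8.27 and 8.39 in Ox-ARP. The change was -0.52 ± 0.17 (adjusted p = 0.026), with -0.42 on chip 1 and -0.62 on chip 2, and the captured array was the lower in 4 of 4 same-numbered comparisons. One pair of arrays overlapped, at 8.77 and 8.79. The call ended without Ox-total replicate 1, 2 or 4 (adjusted p = 0.059, 0.052 and 0.066) and without Ox-ARP replicate 2, 3 or 4 (adjusted p = 0.060, 0.076 and 0.064), with changes from -0.52 to -0.46.

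Cyp51 had 0.33 ± 0.13 (adjusted p = 0.063), the same size as without peroxide, and read 10.21, 10.02, 9.81 and 9.94 in Ox-total and 10.62, 10.35, 10.21 and 10.12 in Ox-ARP. Insig1 probe 1 had 0.41 ± 0.15 (adjusted p = 0.060) and was the one member probe whose groups did not overlap, against 28.5% of all passing probes. It read 8.75, 8.50, 8.65 and 8.89 in Ox-total and 9.10, 8.90, 9.38 and 9.03 in Ox-ARP. With chip as a block both passed (adjusted p = 0.014 and 0.045), which gave 3 calls in place of 1. Among all 10794 passing probes the calls rose too, from 2917 to 3716. Their changes within chips 1 and 2 were 0.37 and 0.29 for Cyp51, and 0.38 and 0.44 for Insig1 probe 1.

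Idi1, the isomerase gene, had the highest change of the 11 probes (0.47 ± 0.23, adjusted p = 0.15) and also the largest SE. It ran from 6.23 to 7.06 in Ox-total and from 6.76 to 7.70 in Ox-ARP, and from 6.28 to 7.36 in Basal-total. Hmgcs1 had 0.21 ± 0.09 (adjusted p = 0.10) and was higher in 4 of 4 same-numbered comparisons, as was Lss at 0.21 ± 0.13 (adjusted p = 0.27). Ebp had 0.18 ± 0.11, with 0.37 on chip 2 and almost none on chip 1. Fdps (0.13 ± 0.15), Hsd17b7 (-0.11 ± 0.09) and Insig1 probes 2 and 3 (-0.25 ± 0.18 and -0.28 ± 0.16) did not pass.

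Comparing Ox-ARP with Basal-ARP asks how the captured fraction differed after peroxide. Here 6 of the 11 probes, from 5 genes, passed and they went both ways: Lss, Fdps and Insig1 probe 1 rose, and Hmgcs1, Hsd17b7 and Insig1 probe 2 fell. Over all passing probes 29.2% were called (13.8% up and 15.4% down). The median over the 11 probes was 0.05, against 0.02 over all passing probes. By the brightest passing probe of each of the 9 genes it was 0.15, against 0.03 over the brightest probes of all genes. These arrays of Basal-ARP are also those of the comparison with Basal-total, so the values of the 2 comparisons are not independent of each other.

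Lss, the lanosterol synthase gene, read 9.42, 9.40, 9.62 and 9.29 in Basal-ARP and 9.89, 10.33, 9.82 and 10.13 in Ox-ARP. The groups did not overlap, as in 27.3% of all passing probes. The change was 0.61 ± 0.13 (adjusted p = 0.0026), 1.53-fold, with 0.70 on chip 1 and 0.52 on chip 2. The Lss values in total RNA were 9.70, 9.71, 9.73 and 9.30 in Basal-total and 9.62, 10.02, 9.73 and 9.99 in Ox-total. Lss was thus lower in captured than in total RNA in 4 of 4 same-numbered comparisons without peroxide and higher in 4 of 4 with it, and neither of those 2 changes passed. Without peroxide replicate 4 was nearly level, at 9.30 in total and 9.29 in captured RNA. The 2 changes were not shown to differ (interaction 0.38 ± 0.19, adjusted p = 0.28), with 0.58 on chip 1 and 0.17 on chip 2.

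Fdps, the farnesyl diphosphate synthase gene, read 12.48, 12.46, 11.96 and 12.30 in Basal-ARP and 13.06, 12.77, 12.37 and 12.61 in Ox-ARP. The change was 0.40 ± 0.15 (adjusted p = 0.046), higher in 4 of 4 same-numbered comparisons, with 0.45 on chip 1 and 0.36 on chip 2. Replicate 3 was the lowest array of both groups, and the groups overlapped. The Fdps call ended without Basal-ARP replicate 3 or 4 (adjusted p = 0.15 and 0.081) and without Ox-ARP replicate 1, 2 or 4 (adjusted p = 0.15, 0.097 and 0.065). Without Ox-ARP replicate 1 the change was 0.28.

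Hmgcs1 and Hsd17b7 fell. Hmgcs1 read 12.79, 12.77, 12.57 and 12.74 in Ox-ARP, below all 4 Basal-ARP arrays, and changed by -0.43 ± 0.09 (adjusted p = 0.0027), with -0.40 on chip 1 and -0.46 on chip 2. Hsd17b7, which encodes a ketoreductase of the sterol stage, read 10.68, 10.64, 10.69 and 10.50 in Basal-ARP and 10.20, 10.29, 10.17 and 10.11 in Ox-ARP. Again no arrays overlapped, and the change was -0.44 ± 0.09 (adjusted p = 0.0022), 1.35-fold lower, with -0.42 on chip 1 and -0.45 on chip 2. In total RNA Hsd17b7 read 10.53, 10.52, 10.25 and 10.24 without peroxide and 10.33, 10.34, 10.18 and 10.39 with it (-0.08 ± 0.09).

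Both of these falls depended on scaling. Median scaling moved the median of all passing probes from 0.02 to 0.13 in this comparison and the split of calls from 1494 up and 1658 down to 2339 up and 812 down. Under it Hmgcs1 had -0.20 (adjusted p = 0.106) and Hsd17b7 -0.29 (adjusted p = 0.105). Relative to the median of all passing probes under that scaling, the changes were -0.33 and -0.42. With no normalization Hmgcs1 had -0.14 (adjusted p = 0.54) and Hsd17b7 -0.23 (adjusted p = 0.49), and neither passed. Both kept their calls with cyclic loess. They also passed in the authors' values, Hmgcs1 at -0.34 (adjusted p = 0.021) and Hsd17b7 at -0.43 (adjusted p = 0.0034). Lss (0.75), Fdps (0.53) and both called Insig1 probes kept their calls under median scaling. Fdps lost its call with cyclic loess (0.38, adjusted p = 0.060) and in the authors' values (0.39, adjusted p = 0.066), and with no normalization Lss (0.81, adjusted p = 0.060) and Insig1 probe 2 (-0.36, adjusted p = 0.105) lost theirs. Cyp51 (0.05 ± 0.13), Dhcr7 (0.15 ± 0.17), Ebp (-0.11 ± 0.11) and Idi1 (0.21 ± 0.23) did not pass.

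Insig1 was measured by several probes, all of which the platform assigns to the same transcript record, and they disagreed. Probe 1 (ILMN_2895388) read 8.90, 8.58, 8.26 and 8.54 in Basal-ARP, below each of the Ox-ARP values given above, and rose by 0.54 ± 0.15 between the captured fractions (adjusted p = 0.016). Probe 2 (ILMN_1245272) read 8.45, 8.09, 7.67 and 8.09 in Basal-ARP and 7.83, 7.48, 7.71 and 7.15 in Ox-ARP, and fell by 0.53 ± 0.18 (adjusted p = 0.031). Probe 3 (ILMN_2606693) read 7.97, 7.82, 7.42 and 7.75 in Basal-ARP and 7.55, 7.14, 7.66 and 7.05 in Ox-ARP, and had -0.39 ± 0.16 (adjusted p = 0.080). Probe 3 passed with the replicate number as a block (adjusted p = 0.0496), with array weights (-0.52, adjusted p = 0.0085) and in the authors' values (-0.46, adjusted p = 0.046). Probes 2 and 3 were lower in 3 of 4 same-numbered comparisons, replicate 3 being the exception for both, while probe 1 was higher in 4 of 4.

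The changes of probes 1 and 2 between the captured fractions lay 1.07 apart. The same gap was 0.65 between Ox-ARP and Ox-total, 0.18 between the total fractions and -0.23 between the basal fractions. In an exact permutation test on the difference between probes 1 and 2 within each array, chosen after the values were seen, both gaps that involve Ox-ARP had a two-sided p of 0.0286, the smallest that 4 against 4 arrays allow. Over the 12 such tests on 3 pairs of probes the adjusted p was 0.0858. Probes 2 and 3 differed in their change by at most 0.14 in size in any of the 4 comparisons (p from 0.171 to 0.857 in the exact permutation test). Of 488 genes with 3 passing probes 5.33% had probes as far apart as Insig1 between the captured fractions, and the median range was 0.40.

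The Insig1 calls rested on few arrays. That of probe 1 ended without Basal-ARP replicate 3 (0.43, adjusted p = 0.055) or Ox-ARP replicate 3 (0.44, adjusted p = 0.052), and its change was 0.26 on chip 1 and 0.81 on chip 2. That of probe 2 ended without Basal-ARP replicate 1, 2 or 4 (adjusted p = 0.096, 0.060 and 0.062) and without Ox-ARP replicate 2 or 4 (adjusted p = 0.071 and 0.11). Its change was -0.61 on chip 1 and -0.45 on chip 2.

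**Figure D3:**
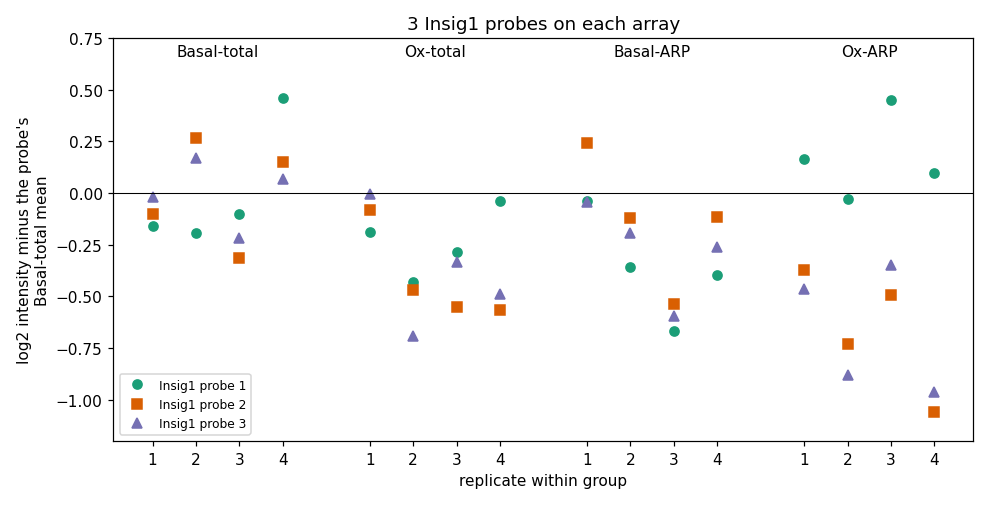
Points are log2 intensities of 3 Insig1 probes on each of the 16 arrays, relative to the probe's own Basal-total mean, with replicates 1 to 4 side by side in each group. In Ox-ARP probe 1 lies above probes 2 and 3 on all 4 arrays, while in Basal-ARP probe 1 lies below probe 2 on all 4.

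The interaction asks whether the change on capture differed with peroxide. None of the 11 probes passed, against 2.52% of all passing probes (272 of 10794, with 0.778% up and 1.74% down), and 2 of the 11 had an unadjusted p under 0.05, against 2039 of all. Insig1 probe 1 had 0.77 ± 0.22 (adjusted p = 0.067), positive in 4 of 4 same-numbered comparisons, and Hsd17b7 had -0.36 ± 0.13 (adjusted p = 0.14), negative in 4 of 4. With chip as a block Insig1 probe 1 passed (adjusted p = 0.037), at 0.39 on chip 1 and 1.15 on chip 2, and it passed without Basal-ARP replicate 1 (0.88, adjusted p = 0.039). Lss had 0.38 ± 0.19 (adjusted p = 0.28) and Dhcr7 0.10 ± 0.23. The calls of Hmgcs1 and Ebp on capture from untreated cells and their lack on capture from treated cells are therefore not shown to differ (-0.20 ± 0.13 and -0.24 ± 0.16, adjusted p = 0.44 and 0.43).

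Other enzymes of the pathway, from a list of 15 genes, were represented by the brightest passing probe of 8. Between the captured fractions 1 rose and 2 fell, on capture 1 rose and 1 fell in each condition, and between the total fractions none passed. Over 8072 probes, the brightest of each gene plus those with no single gene name, 14% were called up and 13.5% down between the captured fractions. The shares over these probes were 16% and 15.9% on capture without peroxide, 13.5% and 12.4% with it, 0.0619% and 0.223% between the total fractions, and 0.842% and 1.04% in the interaction, where no enzyme of the list passed. Pmvk, the phosphomevalonate kinase gene next to the Hmgcs1 step, fell on capture by 0.73 ± 0.10 without peroxide (adjusted p = 3.9e-05) and by 0.85 ± 0.10 with it (adjusted p = 8.5e-06). Nsdhl, a sterol dehydrogenase gene that acts with Hsd17b7, fell by 0.76 ± 0.15 between the captured fractions (adjusted p = 0.0011), and rose by 0.42 ± 0.15 on capture without peroxide. Its 3 other passing probes had -0.69, -0.63 and 0.23 between the captured fractions, and the first 2 of these passed. On capture without peroxide the 3 ran from -0.10 to 0.61.

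Sqle, the squalene epoxidase gene whose product Lss cyclises, was measured by 2 probes that, like those of Insig1, went different ways. Its brighter probe rose by 0.25 ± 0.08 between the captured fractions (adjusted p = 0.026) and the other fell by 0.57 ± 0.10 (adjusted p = 0.00066). Of 1366 genes with 2 passing probes, 4.47% had probes as far apart. Lbr, a sterol reductase gene that also encodes a nuclear lamina receptor, fell by 0.36 ± 0.13 (adjusted p = 0.049). Tm7sf2, a gene for the same reduction, had 0.39 ± 0.15 (adjusted p = 0.062).

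**Figure D4:**
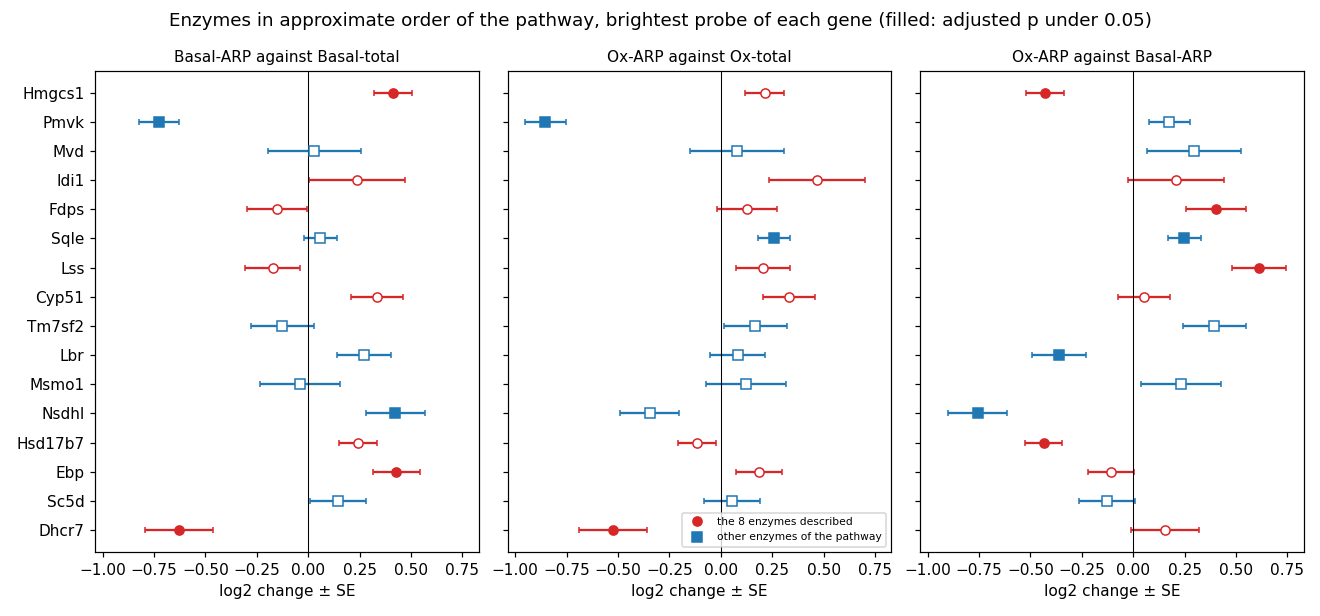
Log2 changes ± SE of 16 pathway enzymes, listed in approximate order of the pathway, in 3 comparisons that involve captured RNA, with red circles for the 8 enzymes described and blue squares for the other 8, filled where the adjusted p was under 0.05. Each gene is shown by its brightest passing probe. Pmvk and Dhcr7, near the start and at the end of the list, lie below 0 in both capture comparisons. Between the captured fractions Fdps, Sqle and Lss, in the middle of the list, are filled above 0, and Hmgcs1, Lbr, Nsdhl and Hsd17b7 below it.

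Among 12 regulators of SREBP processing, 10 were measured. Between the captured fractions 1 rose and 2 fell, against 14% and 13.5% of the brightest probes. On capture 3 rose and 0 fell without peroxide, against 16% and 15.9%, and 1 rose and 0 fell with it, against 13.5% and 12.4%. Mbtps1, whose protease makes the first cut in SREBP, rose in all 3 comparisons that involve captured RNA: by 0.36 ± 0.10 and 0.61 ± 0.10 on capture without and with peroxide, and by 0.29 ± 0.10 between the captured fractions. Its 2 other passing probes had -0.09 and 0.03 on capture without peroxide, 0.44 and 0.51 with it, and 0.34 and 0.46 between the captured fractions. Mbtps2, the protease gene for the second cut, was detected on 4 Basal-ARP arrays and 0 Ox-ARP arrays and was at least 1.21-fold lower in Ox-ARP (adjusted p = 0.0016). It was detected on 1 Basal-total and 0 Ox-total arrays and so passed the detection filter only through Basal-ARP, the group where it was high. This favours its fall and its place among the 2 that fell. It equally favours its rise on capture without peroxide (0.39 ± 0.14) and its place among the 3 that rose. Erlin2, an endoplasmic reticulum gene linked to sterol-regulated degradation, rose by 0.50 ± 0.08 on capture without peroxide, where its 2 other probes had -0.53 and 0.29. Between the captured fractions it fell by 0.45 ± 0.08, and the 2 other probes had -0.94 and -0.18. Srebf2, which encodes the SREBP that drives sterol genes, had 0.42 ± 0.20 (adjusted p = 0.12), and 0.01 ± 0.20 between the total fractions.

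Of 17 genes of sterol uptake, transport and efflux 5 were measured, and between the captured fractions the lysosomal lipase gene Lipa rose by 0.48 ± 0.14 and the sterol carrier gene Stard4 fell by 0.39 ± 0.14. Scarb1, the HDL receptor gene, had 0.61 ± 0.19 on capture with peroxide (adjusted p = 0.021), but was detected on 4 Ox-ARP and 2 Ox-total arrays and passed the filter only through the captured groups. Among 13 fatty acid synthesis genes 11 were measured. On capture 4 rose and 0 fell without peroxide, against 16% and 15.9% of the brightest probes, and 2 rose and 0 fell with it, against 13.5% and 12.4%. Both times these included the malic enzyme gene Me1 at 0.68 ± 0.14 and 0.65 ± 0.14 and the acyl-CoA synthetase gene Acsl3 at 0.38 ± 0.10 and 0.36 ± 0.10. The fatty acid synthase gene Fasn had 0.53 ± 0.19 between the captured fractions (adjusted p = 0.043), but it was detected on 3 of 4 arrays in each other group and passed the filter only through Ox-ARP, which favours a higher value there. Of 14 genes of the isoprenoid branches 10 were measured. On capture 3 rose and 2 fell without peroxide, against 16% and 15.9%, and 1 rose and 1 fell with it, against 13.5% and 12.4%. Between the captured fractions 1 rose and 1 fell, against 14% and 13.5%. Fntb, a farnesyltransferase subunit gene, fell in the 3 comparisons with captured RNA (-0.31 ± 0.09, -0.51 ± 0.09 and -0.26 ± 0.09). None of the genes on these 4 lists passed between the total fractions.

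The median pattern of the 9 genes over the 4 group means, each gene centred on its own mean, was -0.06 in Basal-total against 0.07 in Basal-ARP, and -0.09 in Ox-total against 0.19 in Ox-ARP. The genes outside the lists closest to it, by the root mean square difference over the 4 groups, were Orc4 (0.033), Atp1b1 (0.033) and Limd2 (0.034). The members themselves lay from 0.081 (Cyp51) to 0.393 (Dhcr7) away from it, so this median describes few of them closely.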

How the data were processed

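Bead intensities and detection p-values were deposited by the authors in a scanner table that is not normalized between arrays, on a linear scale per the file headers. The submitters' processing notes name GenomeStudio 2010.2. A second, processed intensity table was deposited too, each column of which was a linear function of that array's scanner signal (mean 376, medians 12.3 to 16.3) and 28.2% of which was negative. Its method stays unknown, and it was used as an alternative.

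Scanner intensities were corrected with normexp (offset 16, negative controls inferred from the detection p-values), quantile normalized and taken to log2 in limma 3.58.1 (R 4.3.3). The normexp offset draws changes of dim probes towards 0. Group means were estimated by lmFit and eBayes from the 16 arrays together, with 12 residual and 5.44 prior degrees of freedom, and Benjamini-Hochberg adjustment over 10794 probes. The number of arrays limits the precision: the median SE was 0.12 for a group difference and 0.17 for the interaction. The script was tested on simulated data. Symbols came from the platform annotation, and names of other list genes from RefSeq (GRCm38.p6).

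The members and lists were chosen with earlier results of these data known. All member probes are named. Of each further list, up to 4 genes with the smallest p in a comparison could be named, and Sqle and Srebf2 whatever their values.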

Additional observations from a re-analysis of the deposited data

Results flagged for a closer look

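In 52 sets of 4 arrays (the 11 member probes, Sqle and Srebf2 in the 4 groups), an array was singled out when its gap to the nearest other array, as a share of the whole range, exceeded Dixon's critical value, which chance gives in about 1 in 20 sets. That held in 3 sets. Lss on Basal-total replicate 4 read 9.30, against 9.70 to 9.73 on the other 3 arrays. Insig1 probe 1 on the same array read 9.39, against 8.74 to 8.83. Sqle on Ox-ARP replicate 2 read 11.66, against 11.74 to 11.76. Without Basal-total replicate 4 no member gained or lost a call, and the interaction of Insig1 probe 1 was 0.62 (adjusted p = 0.11) in place of 0.77.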

How the results depend on the processing

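Between the total fractions 0 of 11 member probes were called under every setting tried. On capture without peroxide the 3 calls became 5 with a normexp offset of 50, the authors' processed values, chip as a block or the replicate number as a block, 1 with no normalization and 0 on chip 2 alone, and 3 to 4 when single arrays were left out. On capture with peroxide the 1 call became 5 with array weights, 4 with the authors' values, 3 with median scaling, chip as a block or the replicate block, 2 with the compared groups alone, and 0 with no normalization, no filter on dim probes or either chip alone, and 0 to 1 when single arrays were left out. That 1 call was not always Dhcr7. Without Ox-total replicate 1 or Ox-ARP replicate 4 it was Cyp51 (0.40 in both, adjusted p = 0.040 and 0.045). Without Ox-total replicate 4 it was Insig1 probe 1 (0.47, adjusted p = 0.049). Between the captured fractions the 6 calls became 2 with no normalization or on chip 1 alone, 1 on chip 2 alone, and 4 to 6 when single arrays were left out. In the interaction Insig1 probe 1 was the 1 call with median scaling, the authors' values, chip as a block, the replicate block and array weights, and 0 to 1 probes were called when single arrays were left out. The replicate block gave 7 calls between the captured fractions, with Insig1 probe 3 added, and changed no member call beyond these. No called difference changed sign. Called differences of single probes kept their calls in 168 fits and lost them in 51. Differences that had not passed gained a call in 45 and changed sign in 55, in 6 of these by over 1 SE.

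Over all passing probes the counts 27, 3437, 2917, 3152 and 272 (in the order total fractions, capture without and with peroxide, captured fractions, interaction) became 0, 1036, 715, 1315 and 1 with no normalization, 1, 1737, 1566, 1163 and 3 on chip 1, and 0, 1273, 711, 1102 and 0 on chip 2. Between the total fractions they were also 49 with the authors' values, 8 for probes detected on all 16 arrays, 75 with chip and 97 with replicate as a block and 104 with array weights, and 13 to 32 with single arrays left out. The interaction gave 828, 1038 and 809 with chip block, replicate block and array weights, 126 over brightest probes, and 107 to 323 with single arrays left out. Capture without peroxide gave 4354 with chip block, 4571 with replicate block, 3411 with the authors' values and 3482 with an offset of 50. Capture with peroxide gave 3716 with chip block, 3927 with replicate block, 3768 with array weights and 3366 with the authors' values. It gave 2545 with median scaling and 2958 with the compared groups alone. Between the captured fractions the replicate block gave 4298. Median scaling moved the calls up and down to 991 and 1580 on capture without peroxide and to 1459 and 1086 with it, from 1799 and 1638 and from 1467 and 1450. The cause of these shifts was not tested.

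Deviations from group means of same-numbered arrays correlated at -0.26 to 0.70, over 0.1 in 20 of 24 pairs, and 11 of 16 arrays correlated best with their own number. Since not every pair was over 0.1 and the labels name no shared source, the numbers were not taken as pairs. Between groups the median correlation was 0.30 and 0.26 for arrays on the same chip (chips 1 and 2) and -0.32 across chips, which the fit without a chip block leaves in the error. The 4 arrays per group limit the precision, and the undetected Insig1 probe has only a bound. Amounts of captured RNA, unlabelled capture and probe positions in the transcripts were not analysed here.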
